A study of Danio rerio with 4 samples.

Results

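The genes described here are 8 forkhead transcription factors of zebrafish, *foxc1a*, *foxc1b*, *foxo1a*, *foxo1b*, *foxo3a*, *foxo3b*, *foxp1a* and *foxp1b*. They were taken by their gene symbols, and they are 8 of the 32520 genes in the count data. All 8 were found and all 8 passed the filter on low counts. The RNA came from *kdrl:EGFP* cells, which were sorted from the ventricles of adult zebrafish at 7 days post amputation (dpa) of part of the ventricle. Brg1 is an ATP-dependent chromatin remodeler, and the question was which genes its inhibition in the endothelium changes during heart regeneration.

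Both groups carried the transgene *ubi:loxp-DsRed-STOP-loxp-DN-xBrg1*, in which a dominant-negative *Xenopus* Brg1 (DN-xBrg1) stands behind a stop cassette, together with EGFP under the *kdrl* promoter. The DNK group carried *kdrl:CreER* in addition, so that 4-hydroxytamoxifen (4-HT) could remove the stop cassette in cells with an active *kdrl* promoter. The CtrlK group were siblings without CreER. Fish of both groups were given 4-HT and the injury, the labels stating 3 days of 4-HT ahead of amputation. The effects of CreER itself and of DN-xBrg1 therefore cannot be told apart, and *kdrl* was both the driver of the reporter and one of the genes measured. Each group had 2 libraries, described as biological replicates made from pooled hearts.

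Forkhead factors bind DNA through a winged-helix domain. FoxC factors act in blood vessels, somites and the developing eye, and in mouse endothelium they have been tied to arterial and chemokine receptor genes. FoxO factors are held in the cytoplasm when insulin or growth factor signaling through PI3K and Akt phosphorylates them, and in the nucleus they turn on genes of cell cycle arrest, stress defence and energy balance. FoxP factors act mainly as repressors, form dimers with each other, and in mouse Foxp1 has roles in both the endocardium and the myocardium. Zebrafish kept a pair of copies, named a and b, of *foxc1*, *foxo1*, *foxo3* and *foxp1*.

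Library totals lay between 25189862 and 28770727 counts, so that 3 counts were worth 0.103 to 0.127 CPM (counts for every 1000000 counts of a library, after TMM scaling in edgeR). Endothelial marker genes summed to 7356 and 7867 CPM in CtrlK and to 6783 and 6985 CPM in DNK. Both DNK libraries thus lay below both controls, and *cdh5*, *tie1* and *tek* were present throughout. Of the 13 endothelial markers tested, 4 were positive and 9 negative. The lower ones included *plvapa*, with 250 and 346 CPM in CtrlK and 15.5 and 5.77 CPM in DNK (edgeR adjusted p = 0.067, DESeq2 adjusted p = 2.88e-10). Cardiomyocyte markers summed to 18627 and 5935 CPM in the CtrlK libraries and to 2079 and 735 CPM in the DNK libraries. Both controls thus lay above both DNK libraries, with CtrlK1 the highest. Of the 13 cardiomyocyte markers tested 12 were negative and 1 positive, with a median log2 fold change of -3.40. Over all 17151 tested genes, 8867 were negative and 8284 positive. By edgeR 0 of the 13 were called, where 8.45% of all genes were called. DESeq2 called 5 lower, where it called 8.35% of all genes lower. *smarca4a*, which encodes zebrafish Brg1, had 26.2 and 26.1 CPM in CtrlK and 39.6 and 29.5 CPM in DNK (adjusted p = 0.271, edgeR). In these bulk samples fewer cells of a type and less RNA per cell cannot be told apart.

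Of the 8 genes, *foxc1b* was higher in DNK and the other 7 were not called (edgeR quasi-likelihood test, adjusted p under 0.05). Over all 17151 genes tested, 8.45% were called, 4.22% higher and 4.23% lower, so 1 of 8 lies near the share of all genes. In 3 of the 8 genes the groups did not overlap, with both DNK libraries above both CtrlK libraries for *foxc1b* and below them for *foxo1a* and *foxp1a*. Among all tested genes 55.5% had groups that did not overlap, 26.9% with DNK above and 28.6% with DNK below. The median log2 fold change of the 8 genes was -0.09, against -0.02 for all tested genes. Exon lengths on the build of the counts were not used here, so levels are compared between libraries for each gene and not between genes.

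**Figure D1:**
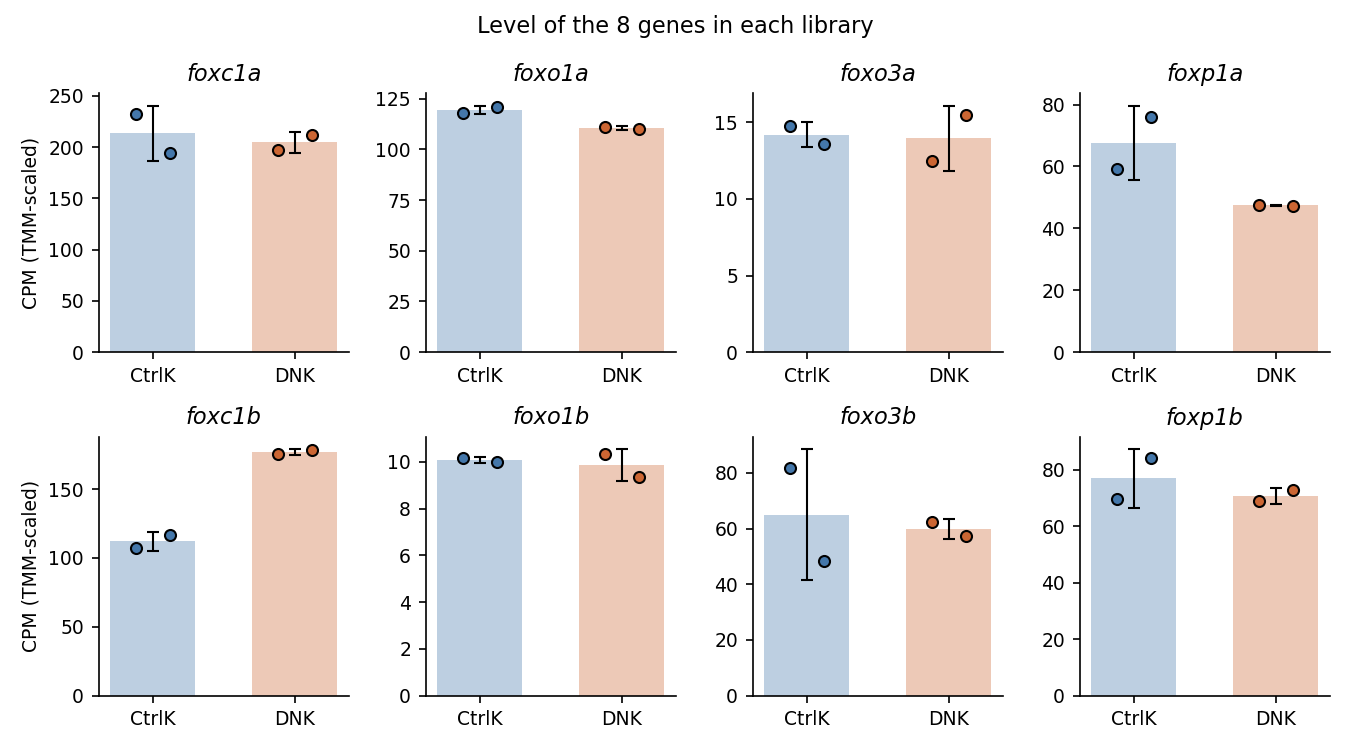
Level of each of the 8 genes in CPM (vertical axis, TMM-scaled, starting at 0) in CtrlK and DNK; points are the 2 libraries of a group, bars the mean and whiskers the SD. The groups stand clearly apart for *foxc1b*, at 112 CPM in CtrlK against 177 CPM in DNK, and CtrlK1 at 81.6 CPM sets the wide spread of *foxo3b*.

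Of the FoxC copies, *foxc1b* (ENSDARG00000055398) had 2539 and 3388 counts in the CtrlK libraries and 5110 and 4820 in the DNK libraries. In CPM these were 107 and 117 in CtrlK and 175 and 178 in DNK, so both DNK libraries lay above both controls with a gap wider than the distance within either group. The means were 112 ± 6.89 CPM (SD, n = 2) in CtrlK and 177 ± 2.06 CPM (SD, n = 2) in DNK, a ratio of 1.58. *foxc1b* rose by a log2 fold change of 0.66 (SE 0.10, 95% interval 0.42 to 0.90, adjusted p = 0.0114). It was also called in each of the 8 alternative fits to the 4 libraries, with adjusted p between 2.77e-07 and 0.0204. Leaving out 1 library gave log2 fold changes between 0.60 and 0.73, and without CtrlK1 the call was lost at an adjusted p of 0.0527.

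*foxc1a* (ENSDARG00000091481), the other copy, acts in somite formation in the zebrafish embryo. Its counts were 5509 and 5633 in CtrlK and 5750 and 5721 in DNK. These equal 232 and 194 CPM in CtrlK and 197 and 212 CPM in DNK, so the DNK values lay between the controls. The difference, a log2 fold change of -0.06, was within the spread (SE 0.11, 95% interval -0.33 to 0.21, adjusted p = 0.813).

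Marker genes of other cell classes also differed between the groups. The 9 markers fixed for epicardium and fibroblasts summed to 1748 and 1895 CPM in CtrlK and to 2602 and 2811 CPM in DNK. Of the 8 tested, 3 rose, namely *pdgfra*, a receptor for platelet-derived growth factor (log2 fold change 1.34), and the collagen genes *col1a1a* (0.79) and *col1a2* (0.70). The list did not move as a whole, with 4 tested members positive and 4 negative, and DESeq2 called 3 higher and 2 lower. The DESeq2 calls in the other direction were *tbx18*, with 47 and 62 counts in CtrlK and 0 and 4 in DNK (edgeR adjusted p = 0.0801), and *postnb*, with 818 and 18 counts against 1 and 0 (edgeR adjusted p = 0.29). The transcription factor genes of the list were at or near 0, since *wt1a* had no counts and *tcf21*, *tbx18* and *wt1b* had at most 2.22 CPM in any library. The remaining marker, *aldh1a2*, was abundant, at 526 and 611 CPM in CtrlK and 512 and 608 CPM in DNK (edgeR adjusted p = 0.939). It encodes retinaldehyde dehydrogenase 2, which the study describes as induced by injury in endocardium as well as epicardium. The sorted cells included endocardium, so *aldh1a2* does not mark only another cell class. Endothelial markers moved as well, with *vwf* higher and *kdrl*, *pecam1a*, *egfl7* and *plvapb* lower in DNK. Of these endothelial calls, *vwf* and *plvapb* held with any 1 library left out. Among blood cell markers, the thrombocyte genes *itga2b*, *gp1bb* and *mpl* (3 of 4 tested) were called lower. So were the leukocyte genes *coro1a* and *ptprc* (2 of 6) and the globin gene *hbaa2* (1 of 4), and none was called higher. Over all tested genes 8.45% were called. The leukocyte marker sum did not fall, at 2298 and 2466 CPM in CtrlK and 2429 and 2504 CPM in DNK. Most of that sum came from *cd74a* and *cd74b*. In CtrlK *cd74a* had 1209 and 1248 CPM and *cd74b* 928 and 1071 CPM. In DNK they had 1200 and 1213 CPM and 1133 and 1213 CPM. Neither *cd74a* (log2 fold change -0.03, edgeR adjusted p = 0.859) nor *cd74b* (0.23, adjusted p = 0.159) was called. Of the 6 leukocyte markers tested, 5 were negative and 1 positive, so the sum does not describe the other markers. The part of these marker changes in the level of *foxc1b* was not tested.

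The genes whose pattern over the 4 libraries was nearest to that of *foxc1b* were *tinf2*, *btbd6a* and *bzw1b*. Likeness was measured as the root mean square difference of centred log2 CPM, which was 0.0075 for *tinf2*, 0.013 for *btbd6a* and 0.018 for *bzw1b*. With 4 libraries this is a description of shared levels only. The log2 fold changes were 0.66, 0.69 and 0.67, and *tinf2*, the gene with the fewest counts of these, was not called (adjusted p = 0.294).

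Of the FoxO genes, *foxo1a* (ENSDARG00000099555) is a copy of the FoxO gene linked in mouse to endothelial quiescence. It had 2800 and 3507 counts in CtrlK and 3241 and 2971 in DNK. The levels were 118 and 121 CPM in CtrlK and 111 and 110 CPM in DNK, a narrow separation with both DNK libraries below. The log2 fold change of -0.11 (SE 0.10, 95% interval -0.36 to 0.13) did not pass the test (adjusted p = 0.587).

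*foxo1b* (ENSDARG00000061549) had 241 and 290 counts in CtrlK and 301 and 253 in DNK. At 10.164 and 9.9998 CPM in CtrlK and 10.330 and 9.3580 CPM in DNK the groups overlapped. The log2 fold change was -0.03 with a 95% interval of -0.66 to 0.60 (adjusted p = 0.963), an interval that leaves room for a change in either direction.

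*foxo3a* (ENSDARG00000023058) is a copy of FoxO3, which in mammals acts in stress resistance and autophagy. It had 350 and 395 counts in CtrlK and 363 and 418 in DNK, or 14.8, 13.6, 12.5 and 15.5 CPM in the same order. The DNK libraries held both the lowest and the highest value. Its log2 fold change was -0.02 (95% interval -0.59 to 0.55, adjusted p = 0.972).

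*foxo3b* (ENSDARG00000042904) had the widest relative spread within a group among the 8 genes. CtrlK1 had 1935 counts and CtrlK2 had 1405, and the DNK libraries had 1815 and 1553. In CPM the controls were 81.6 and 48.4 and lay on either side of DNK at 62.3 and 57.4. The log2 fold change of -0.12 (SE 0.24, adjusted p = 0.828) turned to 0.31 (adjusted p = 0.449) without CtrlK1, the library richest in cardiomyocyte transcripts. Whether those transcripts have a part in the *foxo3b* level of CtrlK1 was not tested.

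Of the FoxP copies, *foxp1a* (ENSDARG00000004843) had 1403 and 2207 counts in CtrlK and 1385 and 1279 in DNK. The levels were 59.2 and 76.1 CPM in CtrlK and 47.5 and 47.3 CPM in DNK. Both DNK libraries lay below both controls and nearly coincided, whereas the controls differed. Its log2 fold change was -0.51 (SE 0.16, 95% interval -0.88 to -0.14), with an unadjusted p of 0.0133 and an adjusted p of 0.0943 in edgeR. The gene was called by DESeq2 (adjusted p = 0.0423), where 15.8% of all genes were called (7.41% higher and 8.35% lower). It was also called by edgeR with no filter on low counts (adjusted p = 0.027). These were 2 of the 8 alternative fits to the 4 libraries, over which the adjusted p ran from 0.027 to 0.179. Without 1 library the log2 fold change ranged from -0.68 to -0.32.

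*foxp1b* (ENSDARG00000014181) had 1652 and 2444 counts in CtrlK and 2007 and 1970 in DNK. Its levels were 69.7 and 84.3 CPM in CtrlK and 68.9 and 72.9 CPM in DNK, which overlapped. With a log2 fold change of -0.12, it was not called (95% interval -0.45 to 0.21, adjusted p = 0.677).

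**Figure D2:**
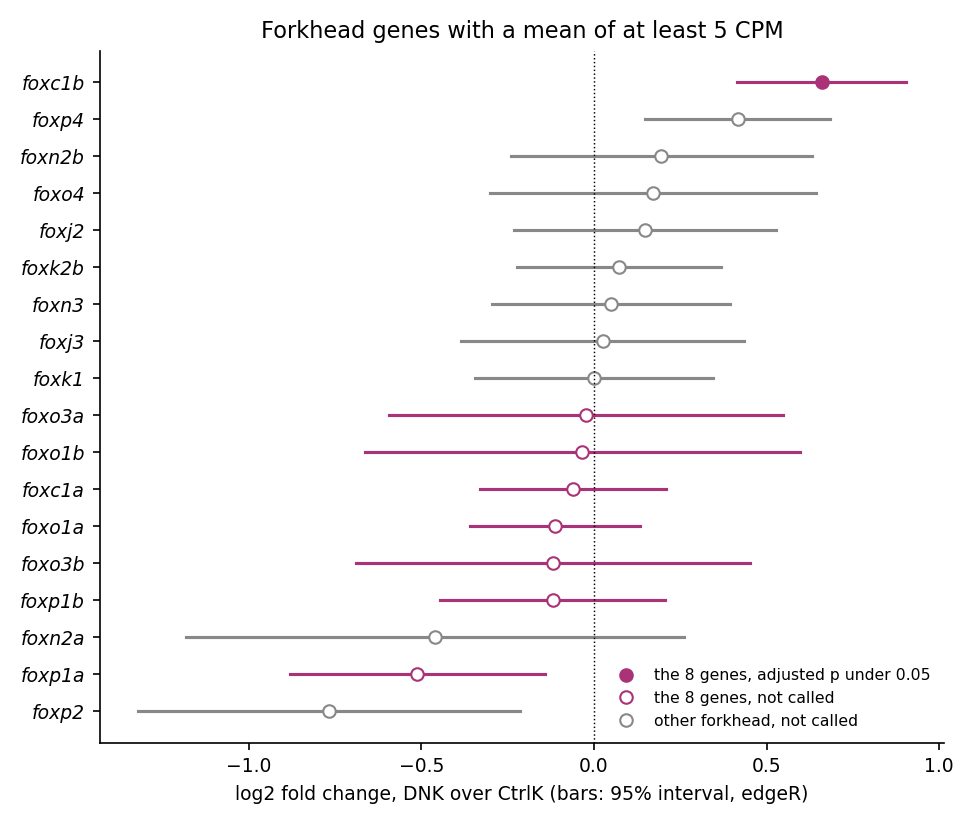
Log2 fold change of DNK over CtrlK (horizontal axis) with its 95% interval from edgeR, for forkhead genes with a mean of at least 5 CPM; the 8 genes are in colour, filled where called, and other forkhead genes are grey. *foxc1b* at 0.66 is the one filled point, and the intervals of *foxp1a* and *foxp2* lie below 0 and that of *foxp4* above 0 without passing the adjusted threshold.

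The copies of a pair were then compared as a ratio within each library, since the share of reads on one copy does not depend on library size. Gene length still enters the share itself, so only its change between libraries is read. In the *foxc1* pair, copy b took 31.5% of the reads of both copies in CtrlK1 (Wilson 95% interval 30.5% to 32.6%), 37.6% in CtrlK2 (36.6% to 38.6%), 47.1% in DNK1 (46.1% to 48.0%) and 45.7% in DNK2 (44.8% to 46.7%). These intervals cover counting error only. Both DNK libraries lay above both controls, and the controls differed from each other by more than counting error. The summed level of both copies was 339 and 311 CPM in CtrlK and 373 and 390 CPM in DNK.

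The log2 ratio of *foxc1b* over *foxc1a* was higher in DNK by 0.72 (SE 0.20, unadjusted p = 0.0195 in edgeR), which did not pass after adjustment over the 1595 duplicate pairs tested (adjusted p = 0.155, edgeR). In 6 other fits of the ratio the adjusted p ran from 0.0884 to 0.252. A change confined to *foxc1b* among the copies is therefore not established, although 1 copy was called and the other was not. Of all pairs, 41.9% had a larger absolute change in ratio, a share that leaves out the error of each change. By its p-value in edgeR the *foxc1* pair ranked 200 among the 1595 pairs.

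None of the 4 pairs passed the test of the copy ratio in edgeR, where 1.63% of all pairs were called (0.815% in each direction). Of the 4, 1 pair, *foxc1*, had an unadjusted p under 0.05, as had 336 of the 1595 pairs tested. By limma, run on the log2 ratios, none of the 4 was called either. The ratios of *foxc1* and *foxp1* did not overlap between the groups, as was the case for 57.9% of all pairs. In the *foxp1* pair, copy b took 54.1% and 52.5% of reads in CtrlK and 59.2% and 60.6% in DNK. The change in log2 ratio was 0.39 (SE 0.18, adjusted p = 0.305).

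The *foxo1* pair kept a steady share of copy b, at 7.93% and 7.64% in CtrlK and 8.50% and 7.85% in DNK. Its change in log2 ratio was 0.08 (SE 0.19, adjusted p = 0.846). In the *foxo3* pair copy b took 84.7% and 78.1% in CtrlK and 83.3% and 78.8% in DNK, so that replicates of 1 group differed more than the group means. The change in log2 ratio there was -0.04 (SE 0.33, adjusted p = 0.964).

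**Figure D3:**
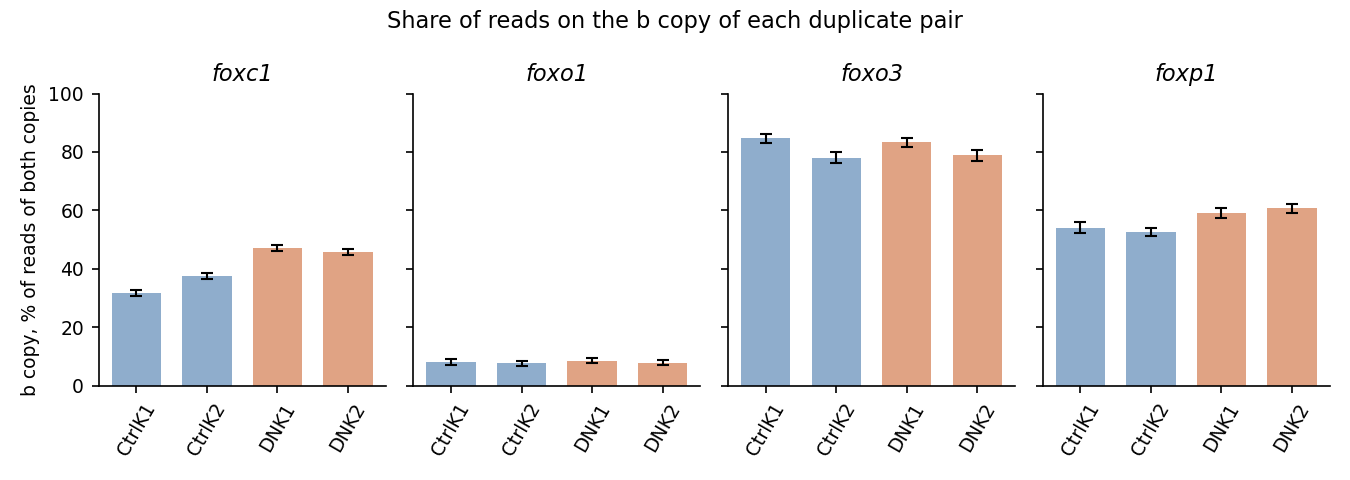
Share of reads on copy b among the reads of both copies of each pair (vertical axis, percent) in the 4 libraries, with Wilson 95% intervals for counting error as whiskers. The *foxc1* share was 31.5% and 37.6% in CtrlK against 47.1% and 45.7% in DNK, while the *foxo1* share stayed between 7.64% and 8.50%.

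**Figure D4:**
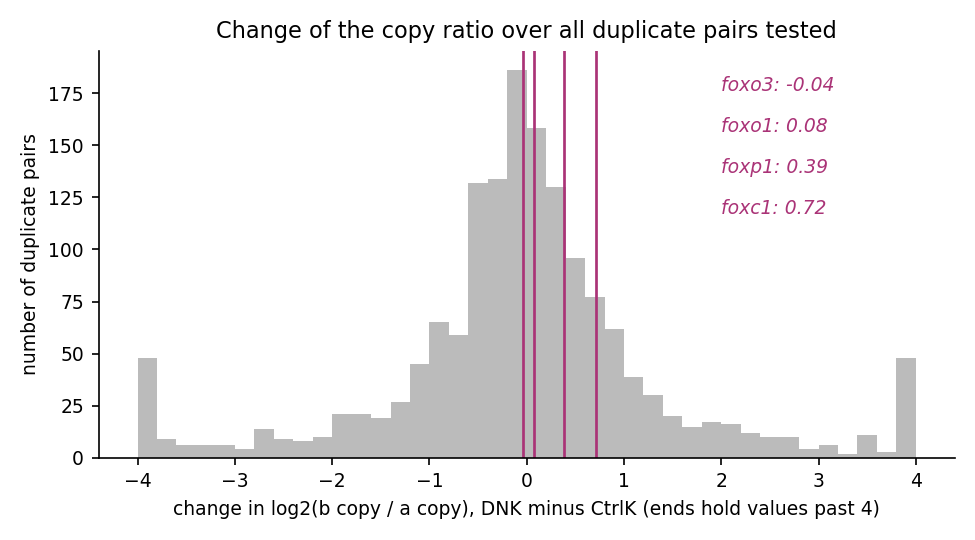
Change in log2 ratio of copy b over copy a, DNK minus CtrlK (horizontal axis), for the 1595 duplicate pairs tested (vertical axis, number of pairs; the end bars hold larger values), with lines at the 4 Fox pairs. The lines lie at -0.04 for *foxo3*, 0.08 for *foxo1*, 0.39 for *foxp1* and 0.72 for *foxc1*, all inside the broad centre of the distribution. The axis takes no account of the error of each change.

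Beyond the 8 genes, the count data held 53 other forkhead genes. Of these, 19 were tested and 13 had 0 counts in every library. None of the 19 was called by edgeR. An unadjusted p under 0.05 in edgeR was reached by 3 of the 19, and by 1938 higher and 2166 lower of all 17151 genes. DESeq2 called 3 of the 19, beside 15.8% over all genes, so the count is no more than that share. They were the FoxP genes *foxp2* and *foxp4*, and *foxm1*, a factor of the G2 and M phases of the cell cycle. Over all alternative fits, DESeq2 included, *foxp4* was called in 4 of 8, *foxp2* in 2 of 8 and *foxm1* in 3 of 7, and none was called with a library left out. They are given as chosen after their values were seen.

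*foxp2*, which can dimerize with Foxp1, had 30.2 and 24.1 CPM in CtrlK and 13.6 and 18.3 CPM in DNK. Both DNK libraries lay below (log2 fold change -0.77, edgeR adjusted p = 0.0945, DESeq2 adjusted p = 0.044). *foxp4* had 138 and 153 CPM in CtrlK and 181 and 207 CPM in DNK, the opposite direction (log2 fold change 0.42, edgeR adjusted p = 0.0706, DESeq2 adjusted p = 0.00998). *foxm1* had 16 and 27 counts in CtrlK whereas DNK1 and DNK2 had 0 (edgeR adjusted p = 0.0732). With 3 counts taken for each DNK library it was 7.51-fold lower, a value that leaves out the error of the CtrlK mean. *foxm1* passed the filter on low counts through the CtrlK libraries only. The 95% interval computed from the edgeR test was -12.2 to -2.71. With 0 counts in DNK it does not bound the log2 fold change. *foxo4*, another FoxO gene, had 427 and 612 counts in CtrlK and 615 and 620 in DNK (adjusted p = 0.682). *foxp3a* had 7 counts in CtrlK1 and none elsewhere, and *foxp3b* had between 6 and 17 counts in a library.

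The listed genes of PI3K and Akt signaling to FoxO were largely not called. Of these 27 genes, 1 rose and none fell (3.7%, against 8.45% of all tested genes), with a median log2 fold change of 0.10. Besides genes from receptor to Akt, the list holds the phosphatase genes *ptena*, *ptenb*, *phlpp1* and *phlpp2*, and *sgk1*, *mtor*, *rictora* and *rictorb*. The median is therefore not a measure of input to FoxO. The gene that rose was *pik3r2*, a regulatory subunit of PI3K, which went from 23.2 and 18.5 CPM in CtrlK to 39.4 and 40.4 CPM in DNK (log2 fold change 0.94, SE 0.18, adjusted p = 0.0255). The call for *pik3r2* held without CtrlK1 (adjusted p = 0.0385) and was lost without CtrlK2, DNK1 or DNK2 (0.0721 to 0.0975). The insulin receptor gene *insra* had 330 and 338 CPM in CtrlK and 292 and 331 CPM in DNK (adjusted p = 0.579). *insrb* (log2 fold change -0.16, adjusted p = 0.836) and *igf1ra*, an IGF1 receptor gene (-0.96, adjusted p = 0.225), did not pass either. DESeq2 called 4 of the 27, all higher, where it called 7.41% of all genes higher and 8.35% lower. They were the PI3K subunit genes *pik3r2*, *pik3r3b*, *pik3r3a* and *pik3cb* (DESeq2 adjusted p = 0.000362, 0.0129, 0.0203 and 0.0447). The subunit genes *pik3ca* (0.57) and *pik3r1* (0.434) were not called by DESeq2.

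Enzymes that modify FoxO proteins, and the 14-3-3 proteins that hold them in the cytoplasm, gave no call among 22 genes tested by edgeR. Of these 4 had an unadjusted p under 0.05, as had 1938 genes higher and 2166 lower of all 17151. DESeq2 called 2, 1 in each direction, where it called 15.8% of all genes. The median log2 fold change of the 22 was 0.05. The deacetylase genes *sirt1* (-0.08, adjusted p = 0.904) and *sirt2* (-0.07, adjusted p = 0.781) and the deubiquitinase gene *usp7* (0.11, adjusted p = 0.677) lay close to 0.

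Of 36 known FoxO target genes tested, 2 rose and 3 fell, and the median log2 fold change was -0.12. By edgeR 13.9% were called, against 8.45% of all tested genes. DESeq2 called 4 higher and 7 lower of the 36, where it called 7.41% of all genes higher and 8.35% lower. An unadjusted p under 0.05 in edgeR was reached by 14 of the 36, and by 1938 higher and 2166 lower of all 17151 genes. Of 8 dissociation and immediate early genes, *fosb*, *jun* and *egr1* fell and *junba* rose, and their part in the levels of the target genes was not tested. The list was compiled from other systems, and which factor binds these genes in these cells was not measured. It holds genes that FoxO factors induce and genes that they repress, such as *ccnd1* and *ccnd2a*. Its median and its counts of rises and falls are therefore not a measure of FoxO activity. *igfbp1a*, an IGF binding protein that FoxO1 induces in liver, went from 43.7 and 56.4 CPM in CtrlK to 5.28 and 10.9 CPM in DNK (log2 fold change -2.63, SE 0.36, adjusted p = 0.00868). *gadd45ab*, a stress and growth arrest gene, went from 48.5 and 47.6 CPM to 21.8 and 14.8 CPM (log2 fold change -1.39, adjusted p = 0.0108). The other copies, *igfbp1b* (log2 fold change 0.48, adjusted p = 0.915) and *gadd45aa* (0.21, adjusted p = 0.861), were not called.

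*klf2b*, a flow-responsive factor, went from 957 and 1107 CPM in CtrlK to 539 and 551 CPM in DNK (log2 fold change -0.92, adjusted p = 0.00149). Its copy *klf2a* did not fall, with 810 and 870 CPM in CtrlK and 916 and 914 CPM in DNK. That copy was not called (log2 fold change 0.12, adjusted p = 0.347). For *igfbp1a*, *gadd45ab* and *klf2b* both DNK libraries lay below both controls, and their calls held with any 1 library left out. The genes that rose were the D-type cyclins *ccnd1* (log2 fold change 0.46, adjusted p = 0.0277) and *ccnd2a* (0.59, adjusted p = 0.0465), which drive entry into the cell cycle and which FoxO factors repress in mammalian cells. Both calls were lost whenever 1 of the 4 libraries was left out, with adjusted p from 0.0881 to 0.107 for *ccnd1* and from 0.0624 to 0.205 for *ccnd2a*.

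The inhibitors of cyclin-dependent kinases, which are classic FoxO targets, gave no call. *cdkn1a* had 81.3 and 99.4 CPM in CtrlK and 60.9 and 73.2 CPM in DNK (log2 fold change -0.43, adjusted p = 0.144), and *cdkn1ba* (-0.63, adjusted p = 0.458) and *cdkn1bb* (-0.12, adjusted p = 0.624) did not pass. The muscle ubiquitin ligase gene *trim63a* had 57.3, 14.3, 2.95 and 0.296 CPM in the order of the libraries (edgeR adjusted p = 0.252). It was named after its values were seen. Its order over the libraries is that of the cardiomyocyte marker sum, whose part was not tested. In the same list, *fbxo32* (17.3, 8.66, 0.309 and 2.44 CPM) and *trim63b* (1.73, 4.24, 1.72 and 0 CPM) did not follow that order.

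Endothelial genes linked to FoxC in other vertebrates gave no call among 11 tested by edgeR. Of these 3 had an unadjusted p under 0.05, as had 1938 genes higher and 2166 lower of all 17151. DESeq2 called 1, lower, where it called 8.35% of all genes lower. The median log2 fold change of the 11 was -0.14. *cxcr4a*, a chemokine receptor gene, had 4.68 and 4.69 CPM in CtrlK and 0.755 and 1.63 CPM in DNK (log2 fold change -1.97, adjusted p = 0.0859). Its copy *cxcr4b* had 164 and 163 CPM against 146 and 109 CPM (-0.36, adjusted p = 0.197). The Notch ligand gene *dll4* had 508 and 563 CPM in CtrlK and 498 and 541 CPM in DNK, which overlapped (-0.04, adjusted p = 0.824).

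Fox and Ets factors jointly drive a set of early endothelial enhancers, known from mouse and *Xenopus* work. Of 8 such genes tested, 1 rose and 3 fell, and the median log2 fold change was -0.19. Over all tested genes 4.22% rose and 4.23% fell, and among the 13 endothelial markers, which share *kdrl*, *cdh5* and *tek* with this list, 38.5% were called. *tal1*, a blood and endothelial factor, rose from 21.8 and 22.1 CPM in CtrlK to 36.9 and 44.4 CPM in DNK (log2 fold change 0.89, adjusted p = 0.026), a call that held without DNK1 (0.0421) and was lost without CtrlK1, CtrlK2 or DNK2 (adjusted p 0.0861 to 0.128). *ecscr*, an endothelial surface protein gene, fell from 432 and 461 CPM to 215 and 226 CPM (-1.02, SE 0.09, adjusted p = 0.000945). *kdrl*, the VEGF receptor gene behind the sorting reporter, fell from 961 and 983 CPM to 677 and 732 CPM (-0.47, adjusted p = 0.0112), and without CtrlK2 its adjusted p was 0.0558.

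*mef2ca*, which is also a cardiomyocyte factor, went from 15.6 and 16.8 CPM in CtrlK to 1.48 and 4.22 CPM in DNK (-2.51, adjusted p = 0.0258). The cardiomyocyte marker sum was also higher in both controls (18627 and 5935 CPM) than in DNK (2079 and 735 CPM), and its part in the level of *mef2ca* was not tested. Its call was lost without CtrlK1 (adjusted p = 0.077) and without CtrlK2 (0.0844). *cdh5* (-0.23, adjusted p = 0.172) and *tek* (-0.15, adjusted p = 0.49) did not pass.

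Among 9 tested partners and linked genes of FoxP factors, 1 rose and none fell (11.1%, against 8.45% of all tested genes), with a median log2 fold change of 0.07. The gene that rose was *hdac1*, a histone deacetylase of repressor complexes, at 180 and 176 CPM in CtrlK against 228 and 266 CPM in DNK (log2 fold change 0.47, adjusted p = 0.0384). This call held without DNK1 (0.0386) and was lost without CtrlK1, CtrlK2 or DNK2 (adjusted p 0.118 to 0.17). DESeq2 called 3 of the 9, *hdac1* and *foxp4* higher and *foxp2* lower, where it called 15.8% of all genes. The list holds *foxp2* and *foxp4*, which were also counted above among the other forkhead genes.

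**Figure D5:**
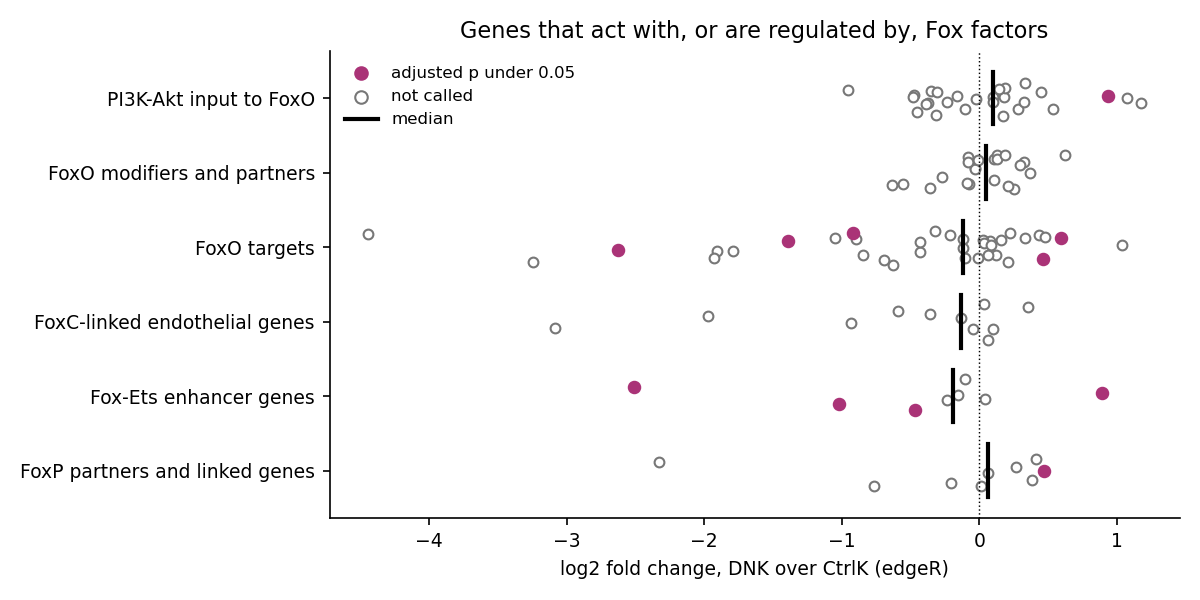
Log2 fold change of DNK over CtrlK (horizontal axis, edgeR) of every tested gene in 6 lists of genes that act with or below Fox factors, filled where called, with the list median as a bar. Called genes lie on both sides of 0 for FoxO targets (2 higher, 3 lower) and Fox-Ets enhancer genes (1 higher, 3 lower), and the medians lie between -0.19 and 0.10.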

How the data were processed

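RNA-seq was made from 2 CtrlK and 2 DNK pools of sorted *kdrl:EGFP* cells, grouped by their labels. The submitters' processing notes name FastQC 0.11.9, HISAT2 2.2.1, featureCounts 2.0.1, StringTie 2.1.5 and DESeq2 with GRCz11. The authors deposited whole-number counts of uniquely mapped reads per Ensembl gene for each library, without normalization. Strand use in counting is not given in the sources used here, so overlapping and antisense genes are uncertain, and reads shared by near-identical copies were left out. The study filtered on FPKM and tested with DESeq2. Exon lengths were not used here, so genes were filtered with filterByExpr, which left 17151, and edgeR 4.0.16 was run in R 4.3.3 (TMM, glmQLFit with robust estimation, glmQLFTest, two-sided, group only, Benjamini-Hochberg). DESeq2 1.42.0 was an alternative. Scripts were tested on simulated data.

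The copy ratio was fitted in edgeR on the counts of copies a and b (library, copy, and copy by group) over 1595 pairs sharing a stem, with limma 3.58.1 as an alternative. CPM values are TMM-scaled.

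The table of identifiers named 9914 genes. For 10517 others with a human-style symbol, including *foxc1a*, *foxo1a* and *foxo1b*, the copy was taken from the chromosome of 25 neighbouring rows on each side and the names of GRCz12tu. Of 977 that the study also names, 99.6% had the same name. No coordinates or sequences are given.

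The 8 genes and the lists were chosen with earlier results of these data known. The text names the 8 genes, up to 4 called genes per direction of each list, 3 preset genes of each list, other forkhead genes that were called, and the 3 genes most like each called member with a mean of at least 5 CPM. Other names were chosen after values were seen. Alternatives were RLE and total-count scaling, no filter on low counts, a minimum of 10 counts throughout, edgeR's likelihood-ratio test, dispersions without robust estimation, a replicate block, and leaving out each library. For the copy ratio they also included prior counts of 2 and 0.5.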

Additional observations from a re-analysis of the deposited data

How the results depend on the processing

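*foxc1b* kept its call in all 8 alternative fits to the 4 libraries, and *foxp1a* its negative sign in all fits, as did *foxo1a*. With 2 libraries per group the intervals of the uncalled genes span changes in both directions for all but *foxp1a*, so small changes were not detectable. The number of the 8 genes called was 2 under DESeq2 and 2 with no filter, and 0 to 1 with a library left out. Over all genes the count went from 1449 to 2703 under DESeq2, 3090 with no filter and 2239 under the likelihood-ratio test, and from 712 to 979 with a library left out. The cause was not tested.

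Total-count scaling, which moved the median of all genes from -0.02 to 0.05, turned *foxc1a* to 0.016, *foxo1b* to 0.039 and *foxo3a* to 0.049. With a library left out the log2 fold change ranged from -0.18 to 0.075 for *foxc1a*, from -0.11 to 0.036 for *foxo1b*, from -0.19 to 0.13 for *foxo3a*, from -0.44 to 0.31 for *foxo3b* and from -0.25 to 0.028 for *foxp1b*, and the ratio change of the *foxo3* pair from -0.36 to 0.28. A lone library is assumed to vary like the other group.

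Of all pairs, 26 were called, 91 with at least 10 counts in every library, 4 with the replicate block, and 0 to 50 with a library left out. Replicate numbers are shared in the labels. Over the tested genes, the deviations of same-numbered libraries from their group means had a correlation of 0.09. With 2 libraries per group this value cannot decide whether same-numbered libraries were handled together. With the replicate block 1 of the 8 genes, 0 of the 4 Fox pairs and 1641 of all genes were called, against 1449 of all genes without it.

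DESeq2, which called 15.8% of all tested genes, called 4 of 27 PI3K-Akt genes, 2 of 22 FoxO modifiers and 11 of 36 FoxO targets. It also called 1 of 11 FoxC-linked genes, 4 of 8 Fox-Ets genes, 3 of 9 FoxP partners and 3 of 19 other forkhead genes. *foxp2* and *foxp4* were counted both as FoxP partners and as other forkhead genes.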

Other observations

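The genes next to the 8 Fox genes in the order of the count data were examined by a rule chosen after the data were seen, taking 5 rows on each side. Of these, 46 were tested and 2 were called by edgeR, a smaller share than the 8.45% of all tested genes. Placed 5 rows after *foxo1b*, *wnt11*, a secreted Wnt ligand gene, had 475 counts in each CtrlK library and 1865 and 1552 in DNK (log2 fold change 1.74, adjusted p = 0.00169). Placed 3 rows after *foxc1b*, the gene ENSDARG00000055416 had 32 and 34 counts in CtrlK and 148 and 159 in DNK (2.12, adjusted p = 0.0403). The gene directly after *foxc1b* was *gmds*, which encodes an enzyme on the path to the fucose donor GDP-fucose. It had 594 and 659 counts in CtrlK and 1036 and 751 in DNK and was not called. The forkhead genes in the rows just before *foxc1b*, *foxq1b* and *foxf2b*, had at most 41 counts in a library. Beside *foxc1a*, *ftr93* had 186 and 286 counts in CtrlK and 469 and 625 in DNK (1.15, adjusted p = 0.0525).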
